A study of Capra hircus with 36 samples.

Results

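The miR-199 and miR-214 microRNAs (miRNAs) of the domestic goat were described across 6 tissues of goats living at high and at low altitude. Members were found by name, as every entry of the count tables called chi-miR-199a, chi-miR-199b, chi-miR-199c or chi-miR-214, on either arm of the precursor and with or without the prefix "conserve-", which the authors gave to sequences known from other mammals. This gave 9 of the 1391 mature miRNAs quantified. They were miR-199a, miR-199b and miR-199c, each with a 3p and a 5p form, miR-214-3p, miR-214-5p and a second entry for miR-214-3p with the prefix. The prefixed entry held 5 reads in all, in 1 spleen library, and is not described further. The members were chosen by name, and the family was selected on read counts known from earlier results of these data, so levels by tissue are a description and were not tested.

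A miRNA precursor folds into a hairpin that is cut into a 5p and a 3p strand, and either strand can be loaded into a silencing complex. The loaded strand pairs with messenger RNAs mainly through its seed, a short stretch near its 5′ end, so the 5p and 3p forms of a hairpin have different targets. miR-199 and miR-214 are known from fibroblasts, smooth muscle and other cells of mesenchymal origin, and have been studied in fibrosis and in heart growth, and miR-199a-5p is known to repress the hypoxia-inducible factor HIF1A. In mammals miR-214 and a copy of miR-199a are made from a shared transcript that runs opposite to an intron of the dynamin gene DNM3. miR-199b lies in the same way within DNM1. In the RefSeq annotation of the goat assembly ARS1.2, MIR199A and MIR214 lay within the span of DNM3 with 0 genes starting between them, and MIR199B lay within the span of DNM1.

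The sequence of miR-199c-3p is shown because its name is the one whose reads were compared for changing place between libraries. The capitals mark the seed, bases 2 to 8 of its 21 bases.
miR-199c-3p: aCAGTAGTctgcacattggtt

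Small RNA libraries had been made from 3 adult female Tibetan Goat animals of the high-altitude population (3000 m) and 3 adult female Chuandong White Goat animals of the low-altitude population (600 m), with an age over 3 years on all labels. From each goat the spleen, the liver, kidney, the heart, the lung and the longissimus muscle were sequenced, which gave 36 libraries in 12 groups of 3. Libraries of different tissues were taken to be of the same goat when their sample titles shared a population and a replicate number. Breed, altitude and place of keeping differ together between the populations and cannot be told apart. The libraries held between 7108635 and 14407748 counts over all miRNAs. Levels are given as reads-per-million (RPM) values, the count of a miRNA scaled to the total counts of its library, and 3 counts corresponded to 0.208 to 0.422 RPM. In RNA from whole tissue, fewer cells of a type and less RNA per cell cannot be told apart.

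Tissue labels were compared with miRNAs that define cell types. The 6 striated muscle miRNAs (miR-1-3p, miR-133a-3p, miR-206-3p, miR-208a-3p, miR-208b-3p and miR-499-5p) summed to a mean of 149854 RPM in heart and 251418 RPM in muscle, against 2746 RPM or less in the other tissues. The hepatocyte miRNA miR-122-5p averaged 50587 RPM in liver and at most 81.3 RPM elsewhere, and the mean in liver rested mostly on high-altitude replicate 3 (16955, 6118 and 179917 RPM at high and 26767, 53506 and 20257 RPM at low altitude). The 5 leukocyte miRNAs, with miR-142-5p the most abundant, summed to 43233 RPM in spleen and 12505 RPM in liver, and the 2 matched ciliated cell miRNAs, miR-34b-5p and miR-34c-5p, to 5914 RPM in lung. These lists were high in the tissues that the labels name. Kidney had no list of its own, since miR-194-5p and miR-215-5p summed to 2990 RPM there and 18306 RPM in liver, and the 5 epithelial miRNAs of the miR-200 family to 3603 RPM in kidney and 8355 RPM in lung. The erythroid miRNAs miR-144-3p and miR-144-5p were at 0 in the 6 lung libraries, while miR-486-5p averaged 7177 RPM there, with 18758, 0 and 5054 RPM at high and 6349.6, 5535 and 7364 RPM at low altitude. Of the endothelial miRNAs, miR-126-3p was highest in lung, with a mean of 19452 RPM, and miR-126-5p was lowest there, with 1866 RPM, and highest in liver, with 11469.6 RPM, so that the list summed to 21318 RPM in lung and 19802 RPM in liver. The part of these cell types in the levels of the family was not tested. Between altitudes, edgeR's quasi-likelihood test called 0 combinations of these miRNAs and tissues. An unadjusted p under 0.05 was reached by 7 of 30 combinations of the epithelial list, 6 of 30 of the leukocyte list, 6 of 36 of the striated muscle list, 4 of 12 of the ciliated cell list, 2 of 12 each of the endothelial list and of miR-194-5p and miR-215-5p, 1 of 6 of miR-122-5p and 0 of 18 of the erythroid list. Over all miRNAs it was 5.32%, and 15.3% over those with a mean of at least 10 RPM, a level that all of these miRNAs reached but 1 of the striated muscle list, without which that list had 5 of 30. The names miR-451-5p, miR-192-5p, miR-449a-5p and miR-152-3p were not matched.

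The 9 entries together took 0.415% to 2.57% of the counts of a library, with a median of 1.08%. chi-miR-199a-3p was the most abundant form, with 1531 to 11268 RPM and a median of 4931 RPM over the 36 libraries. chi-miR-199a-5p ran from 192.1 to 3993 RPM, with a median of 593 RPM. The miR-214 strands were far lower, chi-miR-214-3p with 15.4 to 166 RPM and a median of 60.4 RPM, and miR-214-5p with 2.97 to 25.7 RPM and a median of 8.32 RPM. All 4 of these forms had reads in 36 of 36 libraries.

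Over both populations together, the 3p strand of miR-199 averaged highest in lung and lowest in heart. miR-199a-3p averaged 7730.4 ± 2345 RPM (SD, n = 6) in lung, 6562 ± 1778 RPM in liver and 5768 ± 1895 RPM in spleen. It averaged 4567 ± 3682 RPM in kidney, 2758 ± 833 RPM in muscle and 2611 ± 642 RPM in heart. The ratio of lung to heart was 2.96, and each step from a tissue to the next was smaller than the larger SD of the pair. The order differed between the populations. At high altitude liver (7353 RPM) lay above lung (6349.5 RPM) and muscle (2951 RPM) below heart (3168 RPM), while at low altitude lung (9111 RPM) was highest and heart (2054 RPM) lowest. Kidney had the widest spread, with 11268 RPM in the high-altitude replicate 2 and 1531 RPM in the low-altitude replicate 1. RPM is a share of all counts, and miR-133a-3p and miR-133b-5p held equal counts in all 36 libraries, the only such pair among the 422 miRNAs with the most reads. Whether the same reads were counted under both was not tested. Either entry took 17.9% to 27.6% of the counts in muscle and 8.91% to 18.6% in heart, and at most 0.496% elsewhere. With this count entered once in the totals, miR-199a-3p averaged 3619 RPM in muscle and 2968 RPM in heart, and the order of the tissues was the same. The sum of miR-199b-5p and miR-199c-5p, described below, was then highest in heart, with 618 RPM, against 596 RPM in lung. With trimmed mean of M-values (TMM) scaling, which rescales the totals and gives CPM in place of RPM, the sum of the 3p entries was 9267 CPM in muscle and 6654 CPM in heart, beside 5505 and 5205 RPM, and muscle moved from rank 5 to rank 3 of 6. Lung stayed highest and heart lowest on that scale.

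The 5p strands had another order. miR-199a-5p was highest in spleen, with 2274 ± 1184 RPM (SD, n = 6), followed by liver with 1234 ± 673 RPM and kidney with 1088 ± 850 RPM. Over both populations together, lung, with 493 ± 84.5 RPM, and heart, with 497.4 ± 329.6 RPM, were the lowest. At high altitude heart (287 RPM) and muscle (396 RPM) lay below lung (543 RPM), and at low altitude lung (443 RPM) lay below heart (708 RPM) and muscle (926 RPM). With TMM scaling spleen stayed highest and lung lowest, with 382 CPM against 711 CPM in heart, while muscle moved from rank 4 to rank 2 and liver from rank 2 to rank 4. The sum of miR-199b-5p and miR-199c-5p ran from 595 ± 233 RPM in lung to 194.1 ± 91.1 RPM in spleen over both populations. At high altitude its lowest mean was in liver, with 132 RPM, and at low altitude its highest was in heart, with 764 RPM. With TMM scaling this sum was highest in heart, with 763 CPM against 434 CPM in lung, and still lowest in spleen, with 144.6 CPM. The ratio of miR-199a-5p to this sum was between 5.75 and 19.8 in the 6 spleen libraries, with a median of 11.6. In lung it was between 0.620 and 1.79, with a median of 0.796. The ratios of the 2 tissues did not overlap, and heart, between 0.648 and 1.14, lay within the range of lung. Liver, between 2.24 and 10.5, reached into the range of spleen.

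miR-214-3p, the strand of miR-214 with more reads, averaged 98.4 ± 36.6 RPM (SD, n = 6) in lung and 98.2 ± 24.5 RPM in liver. It averaged 65.9 ± 21.9 RPM in spleen, 48.9 ± 24.5 RPM in kidney, 35.9 ± 7.43 RPM in heart and 28.9 ± 5.28 RPM in muscle. The step from liver to spleen was 1.32 times the larger SD, and the other steps were within it. With TMM scaling lung and liver stayed highest, and muscle moved from rank 6 to rank 3, with 49.9 CPM. miR-214-5p was highest in spleen, with 15.0 ± 2.55 RPM, and lowest in heart, with 5.14 ± 1.205 RPM. With TMM scaling it stayed highest in spleen, with 11.3 CPM, and lung was lowest, with 6.71 CPM against 6.89 CPM in heart. The ratio of miR-214-3p to miR-214-5p ran from 2.72 to 24.7 over the libraries. miR-214-3p and miR-199a-3p varied together over the 36 libraries, with a Pearson r of 0.77 and a Spearman rho of 0.73 on log2(RPM + 1). The libraries of a goat and of a tissue are not independent, so no p is given. miR-3120, known to be made from the strand opposite to miR-214 and looked up after the values were seen, had 4 entries with at most 130 reads each over all libraries.

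**Figure D1:**
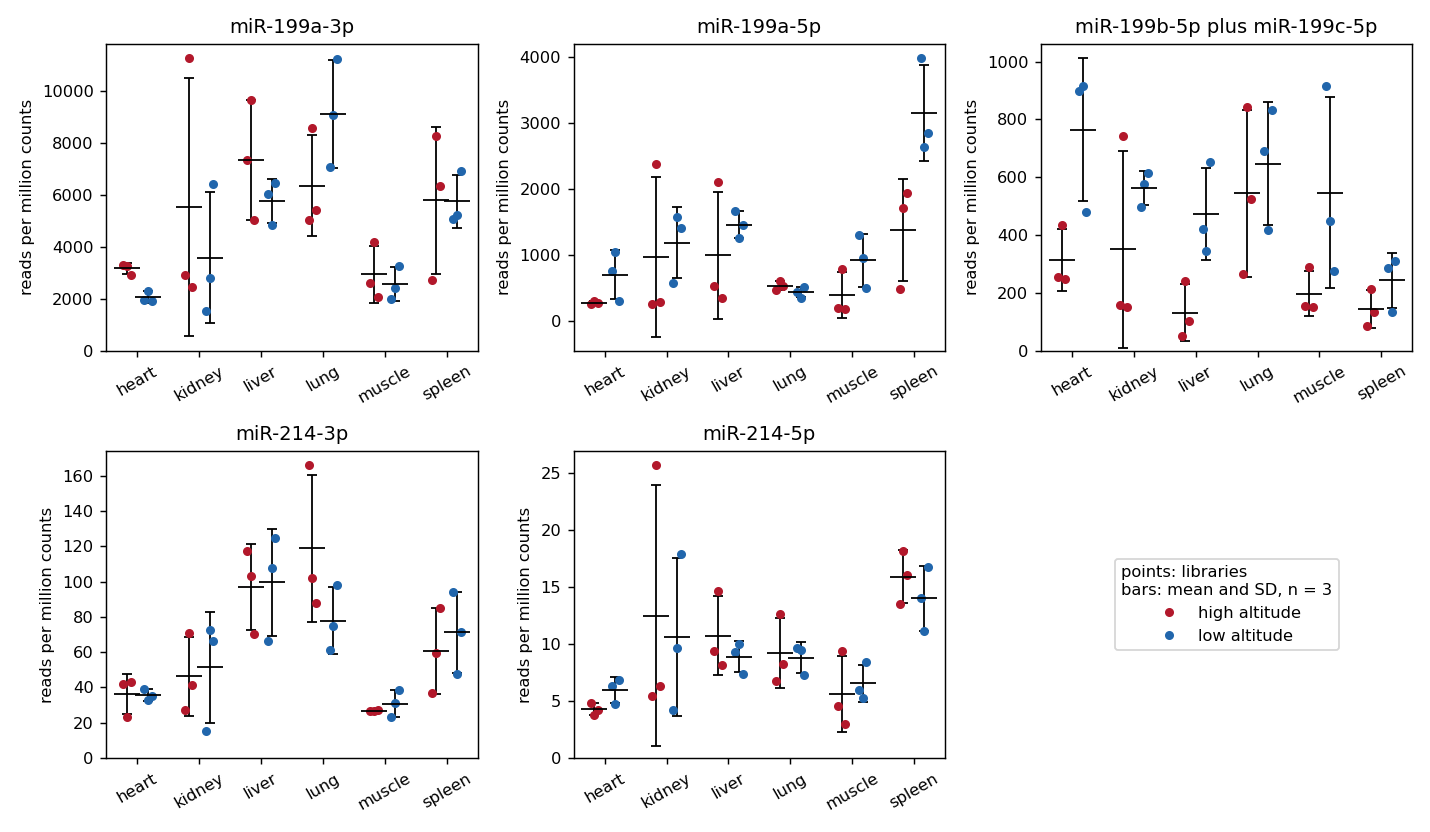
RPM (vertical axes) of miR-199a-3p, miR-199a-5p, the sum of miR-199b-5p and miR-199c-5p, miR-214-3p and miR-214-5p by tissue (horizontal axes), with a point for each library, high altitude in red and low altitude in blue, and bars for the mean and SD of 3 goats. miR-199a-5p lies highest in spleen, where its altitudes are apart, and in heart the altitudes are apart for miR-199a-3p and for that sum, which is also apart in liver.

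The question put to the names was whether reads of miR-199c-3p change place with those of the other miR-199 names between libraries. They did so with miR-199b. In each of the 36 libraries, exactly 1 of miR-199b-3p and miR-199c-3p had reads and the other was at 0. chi-miR-199c-3p had reads in 17 libraries and chi-miR-199b-3p in 19. The name with reads held at least 15023 and at most 113695 reads. The 5p strand took the same name as the 3p strand in 36 of 36 libraries, with 404 to 11179 reads under the name used.

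Within groups of goats, miR-199c was the name with reads in heart of high-altitude replicates 1 and 2, and miR-199b in replicate 3. In spleen of the high-altitude goats it was replicate 3 alone that had miR-199c, and in spleen of the low-altitude goats replicates 1 and 3. The names were mixed in 10 of 12 groups. The exceptions were muscle of the high-altitude goats and lung of the low-altitude goats, where all 3 libraries had miR-199b. Correlations of miR-199c-3p with the other names were also computed. They are not described, because a pooled coefficient cannot be read when libraries are split between reads and 0. Counts of libraries took their place. No p is given for them, since the count was chosen after the values had been seen.

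The name did not follow the goat. The goats of the high-altitude population had miR-199c in 1, 2 and 4 of their 6 tissues, and those of the low-altitude population in 5, 2 and 3. By tissue, miR-199c was the name in 4 of 6 libraries of heart and of liver, 3 of kidney and of spleen, 2 of muscle and 1 of lung. By altitude it was the name in 7 of 18 high-altitude libraries and 10 of 18 low-altitude libraries. The share of tissues with miR-199c was 38.9 ± 25.5% (SD, n = 3 goats) at high and 55.6 ± 25.5% at low altitude, with p = 0.6 in a two-sided exact permutation test over the goats.

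Pairs of names that exclude each other throughout were rare. Among 459 miRNAs with at least 100 reads in a library and at least 50 reads in at least 3 libraries, 105111 pairs were compared. Pairs with at least 50 reads under 1 name and 0 under the other in all 36 libraries numbered 4, the 4 pairings of the miR-199b strands with the miR-199c strands. The next had 35 libraries and numbered 3, and the median pair had 3.

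miR-199a-3p took no part in the exchange and had reads in every library. Its count was close to the count under miR-199b-3p or miR-199c-3p in each of them. In heart of high-altitude replicate 1, miR-199a-3p had 40921 reads and miR-199c-3p 40743. In heart of high-altitude replicate 3, it had 34384 reads and miR-199b-3p 34222. The excess of miR-199a-3p was between 91 and 550 reads, or 0.157% to 1.24% of its count, in all 36 libraries. Whether the same reads were counted under both names was not tested, and the sum of the 3p entries holds both counts. The 5p entries differed from each other, as the ratios by tissue show.

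**Figure D2:**
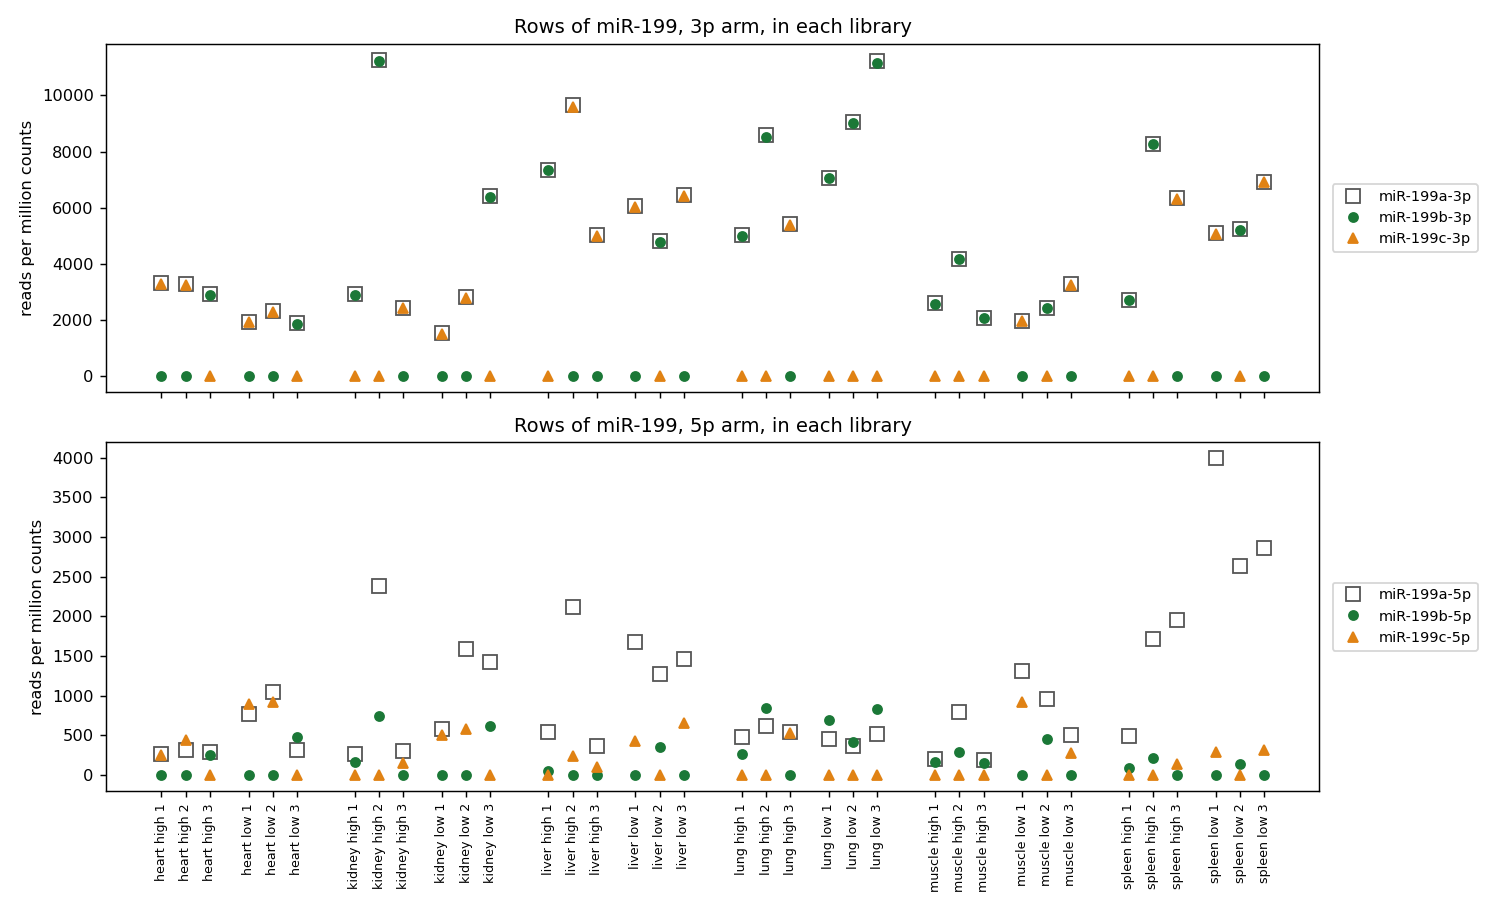
RPM (vertical axes) of miR-199a (open squares), miR-199b (green circles) and miR-199c (orange triangles), 3p strand above and 5p strand below, in each of the 36 libraries, ordered by tissue, altitude and replicate. In every library 1 of miR-199b and miR-199c is at 0, and the other 3p entry lies on miR-199a-3p.

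The spread between goats was far wider for the single names than for their sum. In the mixed groups this follows from 1 of the names being at 0 in each library, and is no further finding. The SD of log2(RPM + 1) within groups averaged 5.90 for miR-199b-3p and 5.74 for miR-199c-3p, and 0.49 for their sum, the same as the 0.49 of miR-199a-3p. On the 5p strand it averaged 3.98 for miR-199b-5p and 4.06 for miR-199c-5p, and 0.67 for their sum, beside 0.74 for miR-199a-5p. With 10 in place of 1 added to the RPM, the SD was 4.31 for miR-199b-3p and 4.14 for miR-199c-3p, and the sum kept 0.49. On the 5p strand it was then 2.43 for miR-199b-5p, 2.49 for miR-199c-5p and 0.65 for their sum. The size of the SD of the single names thus depends on the value added.

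The names bear on the altitude comparison most in muscle and lung. In muscle, miR-199c-3p was at 0, 0 and 0 RPM in the high-altitude goats and at 1979, 0 and 3267 RPM in the low-altitude goats. The low-altitude mean of 1748 RPM was at least 7734-fold higher than a level of 3 counts per library. miR-199b-3p was at 2589, 4161 and 2068 RPM at high and 0, 2421 and 0 RPM at low altitude. Their sum was therefore at 2589, 4161 and 2068 RPM at high and 1979, 2421 and 3267 RPM at low altitude, and the groups overlapped. The log2 fold change of high over low altitude, fitted by edgeR's quasi-likelihood test, was -17.29 ± 4.78 (SE) for miR-199c-3p, with an adjusted p of 0.675, and 0.28 ± 0.33 for the sum, with an adjusted p of 1 (0.0966 to 0.41 with 1 library left out). The first value depends on the prior count and is no bound.

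The muscle result turned on a single library and on the tool. Without low-altitude replicate 2, the only muscle library of that group with miR-199b, edgeR's log2 fold change was 18.27 for miR-199b-3p (adjusted p = 0.00911), 14.36 for miR-199b-5p (adjusted p = 0.0122) and -17.90 for miR-199c-3p (adjusted p = 0.0122), and all 3 passed, among 4 of 1391 miRNAs called in that fit (0.288%). DESeq2 called miR-199c-3p (adjusted p = 8.98e-14) and miR-199c-5p (adjusted p = 3.08e-13) in muscle with all 6 libraries. With miR-199b and miR-199c summed, neither tool called the 3p or the 5p strand in muscle.

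In lung the direction was opposite. miR-199c-3p was at 0, 0 and 5384 RPM in the high-altitude goats and at 0, 0 and 0 RPM in the low-altitude goats, so 1 library carried all of its reads. Its high-altitude mean of 1795 RPM was at least 6113-fold higher than a level of 3 counts per library. The fitted log2 fold change was 17.87 ± 6.99 (SE; edgeR, adjusted p = 0.832), and that of the sum of miR-199b-3p and miR-199c-3p was -0.35 ± 0.35 (adjusted p = 0.994; -0.47 to -0.15 with 1 library left out). Without high-altitude replicate 3, miR-199c-3p had no reads left in lung and its log2 fold change was 0.

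**Figure D3:**
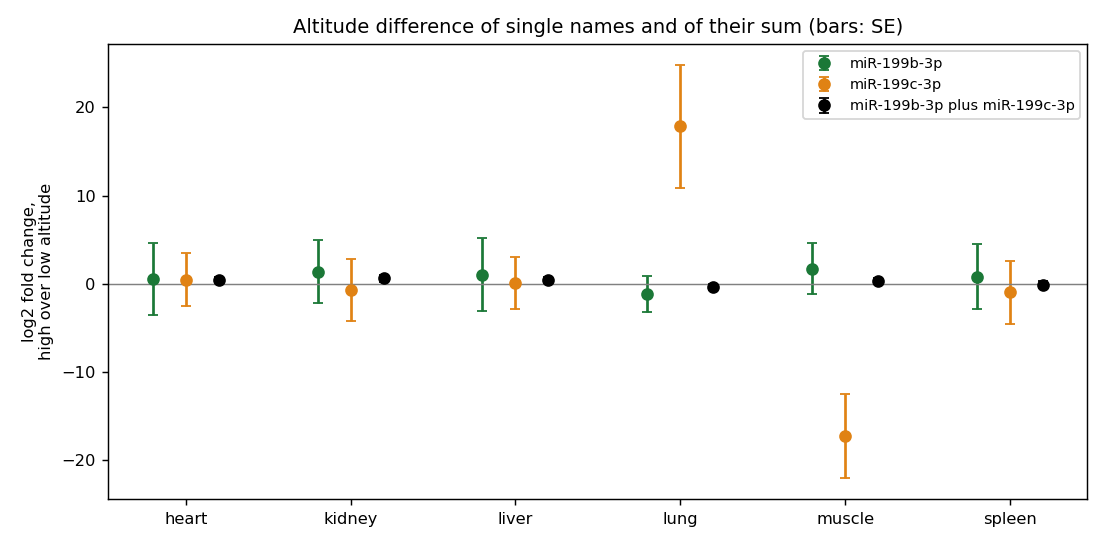
Log2 fold change of high over low altitude (vertical axis) in each tissue (horizontal axis) for miR-199b-3p (green), miR-199c-3p (orange) and their sum (black), with SE as bars. The single names reach 17.87 in lung and -17.29 in muscle for miR-199c-3p, where a group is at 0, and the sum lies between -0.35 and 0.61.

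The altitude comparison asked which miRNAs differ between the populations within a tissue. A miRNA was called when its adjusted p was under 0.05 and its absolute log2 fold change at least 1.5. By edgeR's quasi-likelihood test, 0 of 54 combinations of family entry and tissue were called, against 3 of 8346 combinations over all miRNAs (0.0359%). These 3 were miR-99a-5p and miR-100-5p in spleen and, named after its values were seen, miR-409-5p in muscle, or 0.144% and 0.0719% of the miRNAs tested in these tissues. In muscle, leaving out high-altitude replicate 1 or 3, or low-altitude replicate 1 or 3, left 0 calls among all miRNAs. With all libraries, 4 in the family had an unadjusted p under 0.05, against 444 over all miRNAs (5.32%). edgeR's exact test called 0 in the family (0.359% of all), and DESeq2 called 3 of the 39 family combinations to which it gave an adjusted p, against 179 of 3665 such combinations over all miRNAs (4.88%, or 2.14% of all 8346). These 3 were miR-199a-5p in heart and the miR-199c strands in muscle. With miR-199b and miR-199c summed, 0 of 36 combinations were called by the quasi-likelihood test (0.036% of all), 5 had an unadjusted p under 0.05 (5.56% of all), and DESeq2 called 2 of 36, miR-199a-5p and the summed 5p strand, both in heart, against 4.47% of the 3800 combinations with an adjusted p and 37 of 508 in heart. Among entries with a mean of at least 10 RPM, an unadjusted p under 0.05 was reached by 4 of 42 single combinations, against 15.3% over all miRNAs at that level, and by 5 of 30 with the names summed, against 16.1%. The RPM of the altitudes did not overlap in 2 of 49 combinations of family entry and tissue with reads (13.5% over all miRNAs), miR-199a-3p in heart and miR-199a-5p in spleen. With miR-199b and miR-199c summed it was 5 of 36 family combinations, 13.9% of these 36, beside the 13.5% over all miRNAs with single names. They were the 2 above, the summed 5p strand in heart and in liver, and the summed 3p strand in heart. Counts of that 3p strand nearly equal those of miR-199a-3p. At a mean of at least 10 RPM it was 2 of 42 and 5 of 30, against 22.8% over all miRNAs at that level.

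No altitude difference of miR-199a-3p was called in any tissue by edgeR's quasi-likelihood test or by DESeq2. In heart, miR-199a-3p was at 3308, 3275 and 2922 RPM in the high-altitude goats and at 1941, 2320.3 and 1900.4 RPM in the low-altitude goats. The high-altitude values were all above the low-altitude ones. The log2 fold change was 0.45 ± 0.24 (SE; edgeR, adjusted p = 0.756), below the minimum of 1.5. The smooth muscle miRNAs miR-143-3p and miR-145-5p summed to 180756, 115865 and 189297 RPM in heart at high and 68517, 75539.8 and 58915 RPM at low altitude. This sum was almost wholly miR-143-3p, with a mean of 114022 RPM in heart against 793 RPM for miR-145-5p, and the strands of miR-143 differed in direction. The log2 fold change in heart was 1.09 for miR-143-3p (edgeR, unadjusted p = 0.00595, adjusted p = 0.376), -2.06 for miR-143-5p (unadjusted p = 0.00178, adjusted p = 0.237), -1.58 for miR-145-5p (unadjusted p = 0.0292, adjusted p = 0.655) and -0.70 for miR-145-3p (adjusted p = 0.797). The 25 entries of the wider stromal list summed to 273257, 192333 and 288868 RPM at high and 284068, 284946 and 152751 RPM at low altitude and overlapped. The leukocyte list in heart was 3509, 2002 and 2818 RPM at high and 1924, 1885 and 1531 RPM at low altitude, and was apart. The epithelial list, the ciliated cell list and the sum of miR-194-5p and miR-215-5p were apart in the same direction. The striated muscle, erythroid and endothelial lists and miR-122-5p overlapped in heart. The part of these miRNAs in the heart values of miR-199a-3p was not tested. In lung the values of miR-199a-3p ran the other way, with 5041, 8574 and 5434 RPM at high and 7070.4, 9055 and 11208 RPM at low altitude, and overlapped. The smooth muscle sum in lung was 149442, 154167 and 253381 RPM at high and 290095, 301529 and 264381 RPM at low altitude, without overlap. The wider stromal sum was 221669, 219249 and 345152 RPM at high and 353826, 373910 and 345630 RPM at low altitude, also apart. This sum includes miR-143-3p, which averaged 233301 of its 309906 RPM in lung, so it is no separate measure. Of its 6 most abundant entries, the log2 fold change in lung was -0.27 for miR-143-3p (edgeR, unadjusted p = 0.647). It was -0.15 for miR-22-3p and -0.0652 for miR-21-5p, and 0.79 for miR-10b-5p, 0.56 for miR-125b-5p and 1.02 for miR-100-5p. The part of these sums in the lung values was not tested. Over the tissues the log2 fold change of miR-199a-3p ran from -0.35 in lung to 0.61 in kidney. Leaving out 1 replicate gave 0.26 to 0.55 in heart, -0.47 to -0.14 in lung and 0.21 to 0.90 in kidney. The mean over 6 tissues of log2(RPM + 1) of miR-199a-3p was 12.15 ± 0.52 (SD, n = 3 goats) at high and 11.99 ± 0.33 at low altitude, with p = 0.7 in a two-sided exact permutation test over the goats.

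The fitted altitude difference of miR-199a-5p was negative in 5 of 6 tissues, and none passed the adjusted threshold of edgeR. In heart, miR-199a-5p was at 266, 312 and 282 RPM in the high-altitude goats and at 768, 1046 and 311 RPM in the low-altitude goats. The groups overlapped through low-altitude replicate 3. The log2 fold change was -1.503 ± 0.50 (SE; edgeR, adjusted p = 0.615), and DESeq2 gave -1.53 with an adjusted p of 0.0468. In spleen miR-199a-5p was at 495, 1714 and 1946 RPM at high and 3993, 2637 and 2855 RPM at low altitude. These groups did not overlap. The smooth muscle sum in spleen was 356084, 400367 and 367739 RPM at high and 409401, 563335 and 447855 RPM at low altitude, also apart. The wider stromal sum was 479955, 480576 and 459244 RPM at high and 508358, 660597 and 570213 RPM at low altitude, likewise apart. This sum includes miR-143-3p, which averaged 420675 of its 526490 RPM in spleen, so it is no separate measure. The leukocyte list overlapped, with 17602, 67519 and 62123 RPM at high and 36570, 35256 and 40326 RPM at low altitude. The part of these lists in the spleen values was not tested. The log2 fold change of miR-199a-5p in spleen was -1.30 ± 0.48 (adjusted p = 0.729). In the other tissues it was -0.57 in kidney, -0.68 in liver, 0.52 in lung and -1.34 in muscle. Leaving out 1 replicate moved it to between -1.57 and -0.24 in kidney, between -1.33 and -0.20 in liver and between 0.35 and 0.70 in lung.

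The sum of miR-199b-5p and miR-199c-5p had negative fitted differences as well. In liver it was at 51.4, 242 and 104 RPM in the high-altitude goats and at 423, 346 and 651 RPM in the low-altitude goats. In heart it was at 254, 436 and 247 RPM at high and 897, 916 and 480.4 RPM at low altitude. In both tissues the high-altitude goats were all below the low-altitude goats. The log2 fold change was -1.89 ± 0.57 (SE; edgeR, adjusted p = 0.724) in liver and -1.47 ± 0.43 (adjusted p = 0.448) in heart. DESeq2 gave -1.51 in heart, with an adjusted p of 0.0191. In muscle the values were 155.4, 289 and 150.03 RPM at high and 914, 449.7 and 276 RPM at low altitude, with a log2 fold change of -1.45 ± 0.55 (adjusted p = 0.714). The smallest differences were in spleen, -0.80, and in lung, -0.08. Leaving out 1 replicate moved the value to between -1.85 and -0.91 in muscle and between -1.12 and -0.53 in spleen.

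Over the goats, the mean of log2(RPM + 1) of the summed miR-199b-5p and miR-199c-5p was 7.14, 8.65 and 7.55 in the high-altitude goats and 9.16, 8.67 and 8.94 in the low-altitude goats. The groups were apart by a narrow gap between high-altitude replicate 2 and low-altitude replicate 2. The difference was -1.15, with p = 0.1 in a two-sided exact permutation test, the smallest that 3 against 3 goats can give. For miR-199a-5p the difference was -0.93 (exact permutation test, p = 0.2; -1.41 to -0.62 with 1 goat left out), with high-altitude replicate 2, at 10.03, among the low-altitude goats, at 10.10, 10.13 and 9.79.

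No altitude difference of a miR-214 strand was called in any tissue by edgeR's quasi-likelihood test, by its exact test or by DESeq2, and 0 of 12 combinations had an unadjusted p under 0.05 in the first. In lung miR-214-3p was at 166, 102 and 88.1 RPM in the high-altitude goats and at 61.1, 74.6 and 98.1 RPM in the low-altitude goats. The groups overlapped, and the log2 fold change of 0.82 ± 0.42 (SE; edgeR, adjusted p = 0.832) was the largest of this strand. Over the goats the difference in miR-214-3p was 0.02 (two-sided exact permutation test, p = 1). For miR-214-5p the log2 fold changes ran from -0.65 in heart to 0.34 in liver (0.25 to 0.53 with 1 library left out), and the difference over the goats was -0.03 (p = 1 by exact permutation).

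Whether the altitude difference depended on the tissue was tested as an interaction over 36 libraries. The adjusted p by edgeR's quasi-likelihood test was 1 for the summed 3p and the summed 5p entries of miR-199 and for both strands of miR-214, with unadjusted p from 0.197 to 0.449. In this model the 6 libraries of a goat entered as separate. With goat as a block, added after the values were seen, which takes up the altitude term and leaves the interaction, edgeR gave an adjusted p of 0.958 for the summed 5p entries (unadjusted p = 0.0991) and of 1 for the other sums. With miR-199b and miR-199c summed apart from miR-199a, that block gave unadjusted p = 0.0446 for miR-199a-5p (adjusted p = 0.652) and unadjusted p = 0.0398 for the summed 5p strand (adjusted p = 0.648).

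The 3p and 5p strands were set against each other as the 3p share, the percentage of miR-199a-3p in the reads of miR-199a-3p, miR-199a-5p, miR-199b-5p and miR-199c-5p. In heart it was 86.4%, 81.4% and 84.7% in the high-altitude goats and 53.8%, 54.2% and 70.6% in the low-altitude goats. In spleen it was 82.4%, 81.1% and 75.3% at high and 54.3%, 65.4% and 68.6% at low altitude. The high-altitude shares were above all low-altitude shares in heart, kidney, liver and spleen. In muscle low-altitude replicate 3, with 80.7%, lay above high-altitude replicate 2, with 79.4%. In lung the order was reversed in part, with 83.6% to 87.1% at high and 86.1% to 92.1% at low altitude.

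The mean 3p share over the tissues was 87.3%, 81.0% and 84.2% in the high-altitude goats and 62.4%, 67.7% and 76.7% in the low-altitude goats. The goats of the populations did not overlap. The difference was 15.2 percentage points, with p = 0.1 in a two-sided exact permutation test, the smallest that 3 against 3 goats can give. With all 3p entries of miR-199 counted, it was 10.4 points (exact permutation test, p = 0.1). The definition with miR-199a-3p as the only 3p entry was chosen after the near-equal counts had been seen.

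Other names gave the background for the 3p share. Among 68 other miRNA names whose 2 strands each averaged at least 10 RPM, the goats of the populations did not overlap for 28 (41.2%), and the altitudes did not overlap in at least 4 tissues in the same direction for 15 (22.1%). Their difference over goats had a median size of 2.24 points. It was larger than the 15.2 points of miR-199 for 5 of the 68 names, but that definition sets 1 entry of the 3p strand against 3 of the 5p strand, while the other names use their own 2 strands. It was larger than the 10.4 points with all entries for 10 names. A difference in points is bounded where the share lies near an end of its range. The mean share was 0.0525% for miR-10b and 99.9% for miR-143, against 76.6% and 86.1% for miR-199 by the 2 definitions. Names were not matched on their share. For miR-199a alone the difference was 11.9 points, exceeded by 7 names, and the altitudes were apart with high above low in 4 tissues and with low above high in lung. The 3p share of miR-214 differed by -0.05 points.

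**Figure D4:**
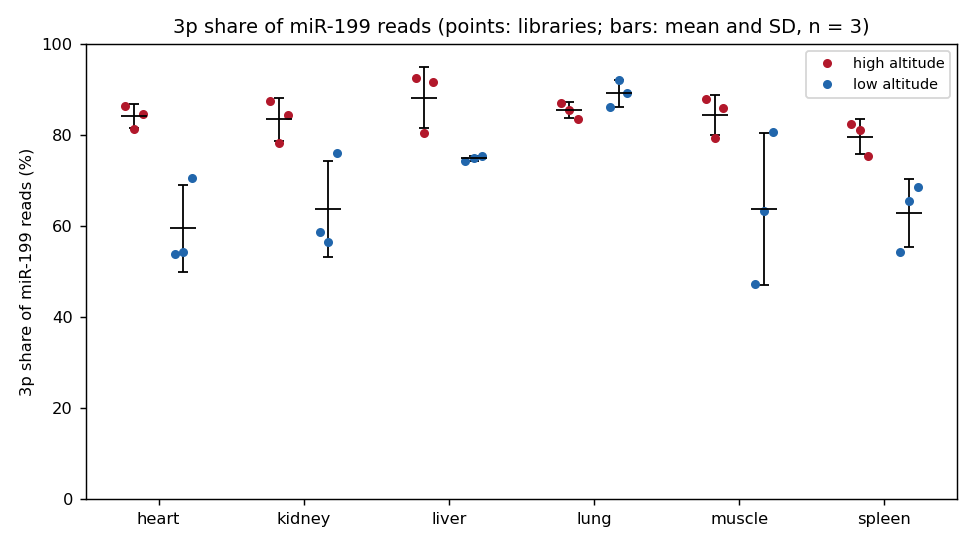
Share of miR-199a-3p in the reads of miR-199a-3p and the 5p entries of miR-199 (vertical axis, percent) by tissue (horizontal axis), with a point for each library, high altitude in red and low altitude in blue, and bars for the mean and SD of 3 goats. The altitudes are apart in heart, kidney, liver and spleen and overlap in lung and muscle.

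Other miRNAs were ranked by how closely they followed the family over the 36 libraries, on log2(RPM + 1), among 301 miRNAs with a mean of at least 10 RPM. For the summed 3p entries of miR-199 these were miR-497-5p (Pearson r = 0.85), miR-106b-3p (0.85), let-7g-5p (0.82), miR-33a-5p (0.81), miR-26b-5p (0.81) and miR-195-3p (0.80). miR-497 and miR-195 are known to come from 1 cluster. miR-497-5p was at 1022 RPM in spleen, 698 RPM in lung and 358 RPM in liver, and at 127 RPM in heart and 146 RPM in muscle. For miR-214-3p they were miR-28-5p (0.78), miR-106b-3p (0.76), miR-34a-5p (0.75), miR-93-5p (0.74), miR-33a-5p (0.73) and miR-361-3p (0.73). The libraries of a tissue and of a goat are shared by all of these values, so r describes likeness only.

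The stromal and smooth muscle list held 20 names, of which 18 were matched to 25 entries. The 6 most abundant were miR-143-3p, the main smooth muscle miRNA, miR-10b-5p, miR-22-3p, miR-125b-5p, miR-100-5p and miR-21-5p. miR-143-3p averaged 420675 RPM in spleen, 233301 RPM in lung and 31389.6 RPM in muscle, so that spleen and not lung was highest, unlike for miR-199a-3p. miR-21-5p, known from fibrosis, was highest in spleen too, with 26980.4 RPM, and miR-10b-5p in kidney, with 314594 RPM. miR-125b-5p and miR-100-5p were highest in heart, with 35927 and 37938 RPM, and miR-22-3p in liver, with 77677 RPM.

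Of 150 combinations of stromal entry and tissue, 0 were called higher and 2 lower at high altitude by edgeR (0.0359% of all miRNAs in either direction), miR-99a-5p and miR-100-5p in spleen. miR-99a-5p was at 492, 649.5 and 698 RPM at high and 10091, 9117 and 13326 RPM at low altitude, with a log2 fold change of -4.21 ± 0.32 (SE; edgeR, adjusted p = 0.00765). miR-100-5p was at 902, 1134 and 2012 RPM at high and 17259, 10945 and 17536 RPM at low altitude, with a log2 fold change of -3.56 ± 0.39 (adjusted p = 0.0386). In both the low-altitude goats were all above the high-altitude ones. Leaving out high-altitude replicate 3, low-altitude replicate 2 or low-altitude replicate 3 left 0 calls among all miRNAs in spleen by edgeR's quasi-likelihood test, with 61, 51 and 40 miRNAs at an unadjusted p under 0.05. Among the 18 entries with a mean of at least 10 RPM, 32 of 108 combinations had an unadjusted p under 0.05, against 282 of 1848 over all miRNAs at that level (15.3%), and the median log2 fold change was -0.33, against 0 over those miRNAs. miR-143-3p gave -0.41 in spleen and 1.34 in muscle (unadjusted p = 0.0464, adjusted p = 0.746) and miR-21-5p 0.52 in spleen, and none passed by edgeR.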

How the data were processed

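Filtered small RNA reads were aligned by the authors with Bowtie to the goat assembly ARS1 without mismatches, and mature forms were then detected and quantified with miRDeep2. A miRNA was retained when some library had 3 or more of its reads. The deposited values are raw counts, 1 table a library. How reads that match several precursors were assigned is not given in the sources used here. Members and lists were chosen with earlier results of these data known.

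RPM used the sum of all counts of a library. Fits within each tissue were made with edgeR 4.0.16 in R 4.3.3 (TMM, glmQLFit and glmQLFTest, altitude as the only term) over all 1391 miRNAs, with Benjamini-Hochberg adjustment, and tested on simulated counts. In 2 more tables the family entries were summed by arm, over all names or over miR-199b and miR-199c only, the latter added after seeing the data. The interaction used tissue, altitude and their product. The unit over tissues was the goat. Named besides the family were, by rule, the 6 most alike miRNAs for each main 3p sum, the 6 most abundant of the stromal list and the cell type miRNAs. DESeq2 1.42.0 and the other settings of the closing section were alternatives. Summaries, exact tests and plots were made in Python 3.11.15, using pandas 2.3.3, SciPy 1.17.1 and NumPy 2.4.6.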

Additional observations from a re-analysis of the deposited data

How the results depend on the processing

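Most values kept their direction and their side of the thresholds under the alternatives, 853 in all, and the cause of each change given here was not tested. With library totals in place of TMM, log2 fold changes that crossed 0 were the summed miR-199 3p entries in spleen (0.00692), the summed 5p entries in lung (-0.00258) and miR-214-3p in heart (0.0165), kidney (-0.15) and liver (-0.0383). With 1 fit over all libraries, they were miR-214-3p (0.18) and miR-214-5p (0.0656) in muscle. The miR-214-5p difference over goats became 0.0118 with 10 added to the RPM and 0.00984 on the TMM scale. DESeq2 called the summed miR-199 5p entries in heart, at -1.52 (adjusted p = 0.0251), 3 family combinations, and 2 with miR-199b and miR-199c summed.

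Over all miRNAs, the 3 calls became 179 with DESeq2, 30 with edgeR's exact test, 18 with edgeR's low count filter and 54 with 1 fit over all libraries. With the equal counts of miR-133a-3p and miR-133b-5p entered once in the library totals, added after the values were seen, the summed miR-199 3p entries averaged 7224 RPM and miR-214-3p 37.8 RPM in muscle. On the TMM scale, the summed miR-199 3p entries averaged 6654 CPM in heart and 9267 in muscle, the summed 5p entries 1779 in muscle, miR-214-3p 47.1 in heart and 49.9 in muscle, and miR-214-5p 6.89 in heart, 6.71 in lung, 9.998 in muscle and 11.3 in spleen.

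Leaving out each replicate in turn gave 0 to 3 calls in the family, the 3 without low-altitude replicate 2, and 0 to 12 over all miRNAs. Log2 fold changes ran from -0.38 to 0.17 for the summed miR-199 3p entries in spleen, from -0.0410 to 0.42 for the summed 5p entries in lung and from -0.32 to 0.26 for the summed miR-199b-5p and miR-199c-5p in lung. For miR-214-3p they ran from -0.21 to 0.45 in kidney, from -0.21 to 0.31 in liver and from -0.25 to 0.10 in muscle, and for miR-214-5p from -0.18 to 0.47 in kidney and from -0.47 to 0.0418 in muscle. Differences over goats ran from -0.14 to 0.34 for the summed miR-199 3p entries and for miR-199a-3p, from -0.15 to 0.17 for miR-214-3p and from -0.28 to 0.11 for miR-214-5p.

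Replicate numbers belong to different goats, and same-numbered libraries deviated together, with r over 0.1 over 308 miRNAs, in 7 of 18 pairs (-0.46 to 0.51), among them all 3 of heart (0.51, 0.35 and 0.45). Since the other tissues were not alike in this, libraries were not paired. With the replicate number as a block, edgeR called 0 of all miRNAs and 0 in the family, and the summed miR-199 5p entries in heart had a log2 fold change of -1.37 (adjusted p = 0.571), and that of miR-199a-5p in heart was -1.32 (adjusted p = 0.716). With 3 goats a population, the exact tests over goats cannot give a p under 0.1. Other scales for correlating miR-199c-3p with the other names were not run, since counts of libraries took their place.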
